A study of Homo sapiens with 2 samples.

Results

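The 10 genes described here encode the enzymes that make and break down inositol pyrophosphates: IPMK, ITPK1, IPPK, IP6K1, IP6K2, PPIP5K1, PPIP5K2, NUDT3, NUDT4 and MINPP1. They were chosen by name, for their place in the pathway, and all 10 were found among the 58884 genes of the expression table. The table holds 2 RNA-seq libraries, both from TPC-1, a cell line derived from a human papillary thyroid carcinoma. The cells of 1 library received a control siRNA, and those of the other library an siRNA that targets XPR1. Both libraries come from the same line and share every other condition that the labels name. The sources used here give neither the sequence of either siRNA nor the hours between transfection and lysis. With 1 library per group there was no replicate, no test of the conditions was possible, and every difference below describes these 2 libraries.

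Inositol pyrophosphates are inositol phosphates that carry a diphosphate group. They are built on inositol hexakisphosphate (IP6). IP6 kinases turn it into IP7, and the PPIP5 kinases turn IP7 into IP8. These molecules bind SPX domains, and XPR1, the phosphate exporter of human cells, carries such a domain at its cytosolic end. Their binding lets a cell tie phosphate export to its phosphate and energy state. Nudix hydrolases of the DIPP family, among them NUDT3 and NUDT4, take the diphosphate back to a single phosphate, and MINPP1 strips phosphates from IP6 and related molecules.

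The level of a gene is given in TPM, a length-corrected share of the transcripts of its library. Differences are on the log2(TPM + 1) scale, XPR1 siRNA minus control siRNA, which understates the change of low genes. Ratios are ratios of TPM. The libraries held about 15780000 (control siRNA) and 15150000 (XPR1 siRNA) counted reads, worked out from TPM and annotated exon length. The 95% intervals below come from these reads and cover counting error only. XPR1 itself was 39.2 TPM after control siRNA and 5.31 TPM after XPR1 siRNA, a 7.39-fold lower level (95% Clopper-Pearson interval 6.35 to 8.63). Of 7 thyroid markers, 2 had a mean of at least 1 TPM: PAX8, a thyroid transcription factor, was 588.1 and 408.6 TPM, and FOXE1 was 11.1 and 13.7 TPM. NKX2-1, TSHR and SLC5A5 were at 0 in both libraries. None of 5 leukocyte markers had a mean of 1 TPM or more, with 0.598 TPM (CD14) as the top value. Of 4 endothelial and 5 fibroblast markers 1 each did so, with summed levels of 1.49 and 0.971 TPM and of 1.40 and 7.85 TPM. The fibroblast sum was mostly COL1A1 (1.04 and 6.67 TPM), while COL1A2 and COL3A1 were under 1 TPM and DCN was at 0 in both libraries. LUM was also higher after XPR1 siRNA, at 0.0887 and 1.11 TPM, from about 1 and 14 reads. Of 5 epithelial markers, KRT8 and KRT18 were expressed, the summed level was 186.1 and 132.1 TPM, EPCAM was at 0 in both libraries and CDH1 was 0.116 and 0.0404 TPM. KRT8 and KRT18 were lower after XPR1 siRNA. KRT19 was listed higher, at 0.304 and 1.05 TPM from 3 and 10 reads, with a ratio interval that held 1. The part of these differences in the results below was not tested. In bulk RNA a smaller number of cells of one type cannot be told apart from less RNA per cell.

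Some members overlap other genes or have copies elsewhere in the genome. Of the 9905 exonic bases of NUDT3, 95.9% lie inside exons of other genes in GENCODE 29, which leaves 411 bases of its own. The readthrough gene RPS10-NUDT3, on the same strand, covers 4286 of them, and the non-coding gene ENSG00000225339, on the opposite strand, covers 7090. Of the 516 coding bases of NUDT3, 99 are outside other genes' exons. The start of its coding sequence is shown because it holds the point where those bases end. It comes from GENCODE 29 on GRCh38, from the minus strand of chr6:34341952-34392362, coding bases 1 to 120, with the intron left out. Capitals mark bases in no other gene's exon.
NUDT3: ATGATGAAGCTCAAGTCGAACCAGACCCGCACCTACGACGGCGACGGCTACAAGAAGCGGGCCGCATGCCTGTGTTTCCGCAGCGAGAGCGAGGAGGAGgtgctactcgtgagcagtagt

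NUDT4 has a near-identical copy. NUDT4B, a single-exon gene on chromosome 1 (148748894 to 148750099, plus strand), has the same 543 coding bases as NUDT4 on chromosome 12, with no differing base. The longest exact run that the transcripts share is 1040 bases. The first coding bases of both are shown because a read from them cannot be placed in one of the genes. Both lines are on the plus strand of GRCh38, coding bases 1 to 120, from chr12:93378323-93394629 with the intron left out (NUDT4) and from chr1:148748953-148749072 (NUDT4B). There are no capitals, since no base differs.
NUDT4: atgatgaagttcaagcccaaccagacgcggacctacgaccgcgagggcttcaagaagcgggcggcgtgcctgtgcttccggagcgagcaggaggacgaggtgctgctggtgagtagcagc
NUDT4B: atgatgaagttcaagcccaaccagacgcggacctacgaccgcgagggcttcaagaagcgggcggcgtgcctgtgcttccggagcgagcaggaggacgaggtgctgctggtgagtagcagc

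NUDT4B and the processed copy NUDT4P2 were listed at 0 in both libraries. NUDT3 and NUDT4 were far less alike, with 75.2% of aligned coding bases identical and no identical run over 15 bases. In PPIP5K1, 56.6% of the longest transcript lay in exact runs of at least 75 bases shared with genes elsewhere on chromosome 15, mainly the pseudogene ENSG00000249839 (0.0733 and 0.305 TPM). The corresponding share was 13.2% for NUDT4, 6.73% for IPMK, 2.36% for PPIP5K2 and 1.63% for NUDT3, and it was 0 for IPPK, ITPK1, IP6K1, IP6K2 and MINPP1. The library kit does not mark strand, so reads from overlapping exons on opposite strands cannot be told apart either. This touches IPPK, with 72.0% of its exonic bases in exons of CENPP, and NUDT4, with 24.5% in exons of UBE2N. The sources used here do not say how reads in shared bases were counted.

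**Figure D1:**
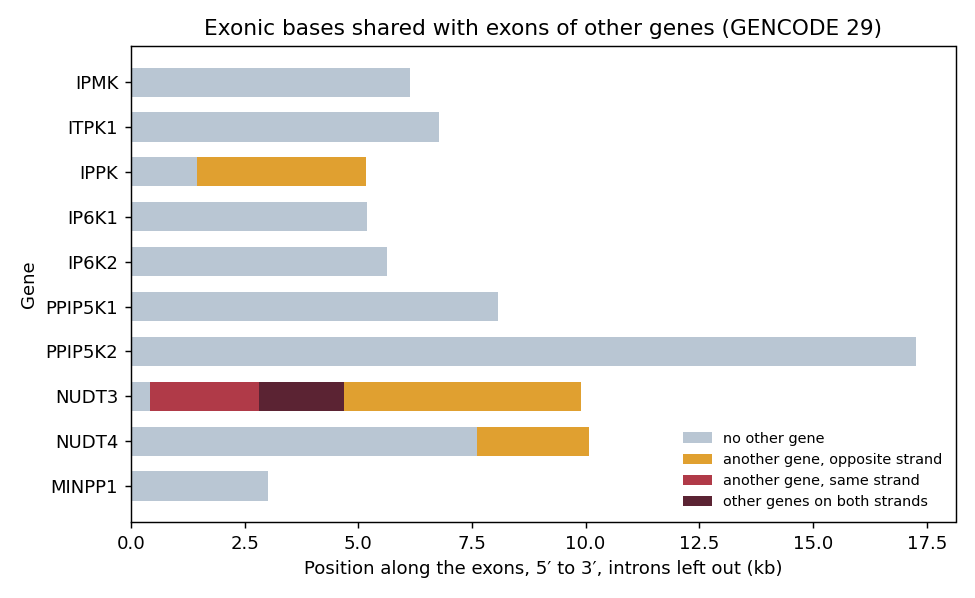
Exonic bases of each of the 10 genes, laid end to end from 5′ to 3′ in kb, coloured by whether exons of another GENCODE 29 gene cover them and on which strand. NUDT3 is covered over 95.9% of its length and IPPK over 72.0%, NUDT4 over 24.5%, and the other genes over none or, for PPIP5K2, 3 bases.

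Across the members, levels ran from under 1 TPM to about 44 TPM. By the listed values, the order after control siRNA was IP6K1, ITPK1, IP6K2, MINPP1, IPMK, NUDT4, PPIP5K2, PPIP5K1, IPPK and NUDT3. Neighbours whose counting intervals overlapped were ITPK1 and IP6K2, MINPP1 and IPMK, and IPMK and NUDT4. After XPR1 siRNA MINPP1 moved from place 4 to place 1 and NUDT4 from place 6 to place 7. Among the first 4 places (MINPP1, IP6K1, ITPK1, IP6K2) each gene's interval then overlapped that of the next, as did those of NUDT4 and PPIP5K1. Summed over the 10 genes, the level was 196.5 TPM after control siRNA and 229.9 TPM after XPR1 siRNA, a ratio of 1.17.

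**Figure D2:**
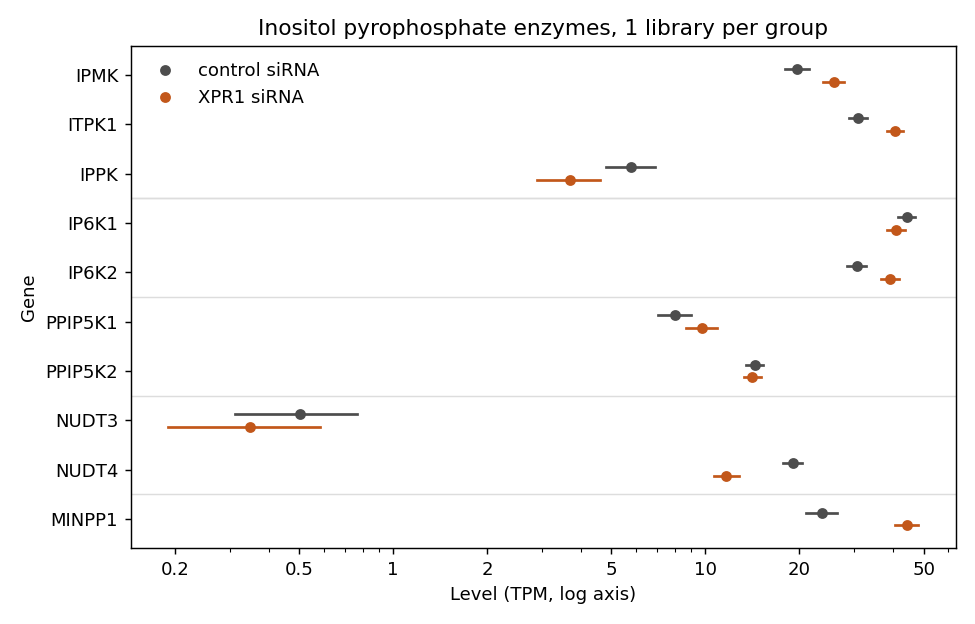
Level of each of the 10 genes in TPM on a log axis, in order of pathway step, with 1 point per library and bars for the 95% Poisson counting interval. MINPP1 stands higher after XPR1 siRNA (44.1 against 23.6 TPM) and NUDT4 lower (11.7 against 19.0 TPM), while the bars of IP6K1 and of PPIP5K2 overlap between libraries.

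Of the 10 members, 9 had a mean of at least 1 TPM over the libraries, and NUDT3 did not. Of the 9, 1 member (MINPP1) was higher after XPR1 siRNA by 1.5-fold or more and 1 (NUDT4) lower by as much, each 11.1% of the 9. Among all 16319 genes with such a mean, 21.7% were higher by that measure and 16.6% lower. Among the 11698 protein-coding genes the shares were 20.7% and 11.1%. The members' shares are thus at or below those of the background on this scale. With a pseudocount of 0.1, with upper-quartile scaling or with the recovered reads, IPPK was also past 1.5-fold, and the lower members were then 22.2% of the 9, against 19.2% of all genes. None of the 9 was 2-fold apart in either direction, as 19.0% of all genes were. The median difference of the 9 was 0.26, against 0.05 over all genes. The counting interval of the ratio lay above 1 for 5 members (MINPP1, ITPK1, IPMK, IP6K2, PPIP5K1), below 1 for 2 (NUDT4, IPPK) and held 1 for IP6K1 and PPIP5K2. The same count over all genes was not made, so these counts do not set the members apart. In the wider list described below, the interval lay above 1 for 14 of 37 genes, below 1 for 16 and held 1 for 7.

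**Figure D3:**
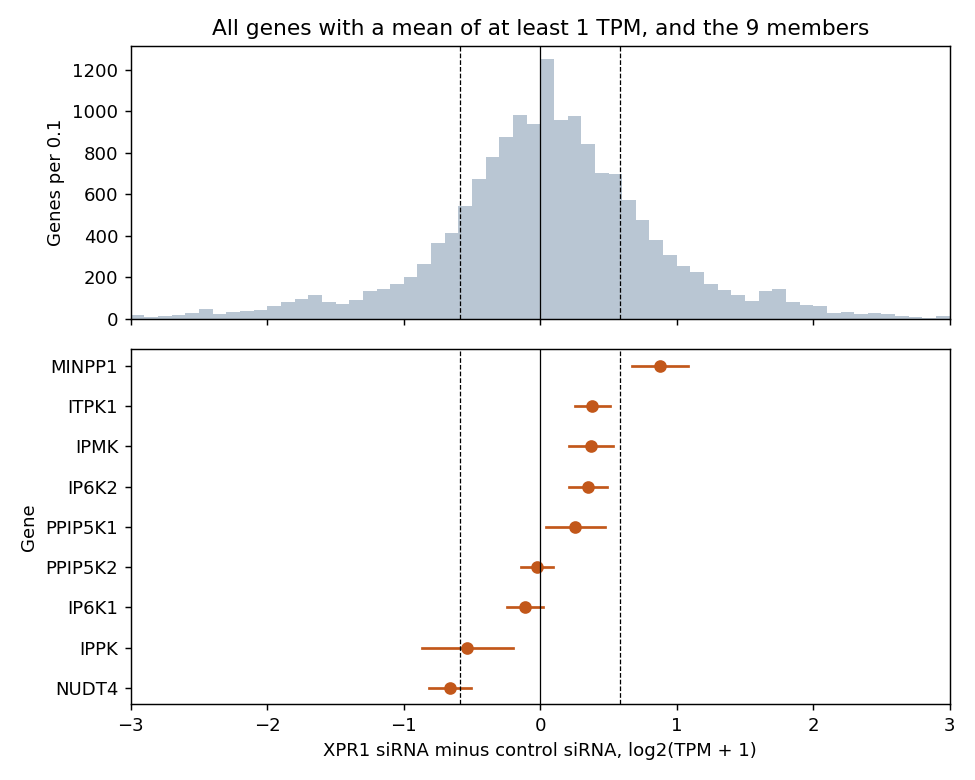
Differences between the libraries on the log2(TPM + 1) scale, as a histogram of the 16319 genes whose mean was 1 TPM or more (123 lie outside the axis) above the 9 members with 95% counting intervals. Dashed lines mark 1.5-fold, and the members other than MINPP1 at 0.88 and NUDT4 at -0.66 sit between them.

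The route to IP6 runs through IPMK, ITPK1 and IPPK. IPMK (ENSG00000151151, GRCh38 chromosome 10, 58191517 to 58267934, minus strand), the inositol polyphosphate multikinase, phosphorylates IP3 and higher inositol phosphates. It was 19.7 TPM after control siRNA and 25.8 TPM after XPR1 siRNA, a ratio of 1.31 (1.16 to 1.47). ITPK1 (ENSG00000100605, chromosome 14, 92936914 to 93116320, minus strand), a kinase of inositol trisphosphate and tetrakisphosphate, was 30.9 and 40.5 TPM, also a ratio of 1.31 (1.20 to 1.44). Both were thus a little higher in the XPR1-siRNA library, by 0.37 and 0.38 on the log2 scale, and 31.1% and 30.5% of all compared genes had a larger difference.

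IPPK (ENSG00000127080, chromosome 9, 92613184 to 92670265, minus strand) adds the last phosphate that makes IP6. It went the other way, at 5.79 TPM after control siRNA and 3.67 TPM after XPR1 siRNA, or 1.58-fold lower by TPM (1.18 to 2.12), from 126 and 77 reads. On the log2(TPM + 1) scale this was -0.54, just short of 1.5-fold. CENPP, the centromere protein gene whose exons cover most of IPPK on the opposite strand, was 1.02 and 2.70 TPM, so it was higher where IPPK was lower. The part of this overlap in the IPPK difference was not tested. The summed level of the 3 genes was 56.4 and 70.0 TPM, and IPPK was listed lowest of them in both libraries. That place rests on the listed values, since the same reads over its 1447 uncovered bases alone would give 20.7 and 13.1 TPM.

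The IP6 kinases make IP7 from IP6. IP6K1 (ENSG00000176095, chromosome 3, 49724294 to 49786542, minus strand) was 44.2 TPM after control siRNA and 40.9 TPM after XPR1 siRNA. Its ratio was 0.925 (0.843 to 1.01), so the difference was within counting error. IP6K2 (ENSG00000068745, chromosome 3, 48688003 to 48740353, minus strand) was 30.5 and 39.1 TPM, a ratio of 1.28 (1.16 to 1.41). The genes lie near each other on chromosome 3 and share no run of 75 bases with genes elsewhere. The share of IP6K1 in their summed TPM was 59.2% with control siRNA and 51.1% with XPR1 siRNA. Their sum was 74.7 and 79.9 TPM. IP6K3, the remaining IP6 kinase, had 1 read with the control siRNA and 0 with the XPR1 siRNA. This allows a level of up to 0.474 TPM with the control siRNA and up to 0.265 TPM with the XPR1 siRNA.

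The PPIP5 kinases, which pair a kinase domain with a phosphatase-like domain, make IP8. PPIP5K2 (ENSG00000145725, chromosome 5, 103120149 to 103212799, plus strand) was 14.4 TPM after control siRNA and 14.1 TPM after XPR1 siRNA. With a ratio of 0.983 (0.900 to 1.07) it was the member closest to equal levels. PPIP5K1 (ENSG00000168781, chromosome 15, 43533462 to 43590253, minus strand) was 7.98 and 9.73 TPM, a ratio of 1.22 (1.03 to 1.44). Its level may miss reads that also match the pseudogene copy, which was not tested. By the listed values, PPIP5K2 was the more abundant in both libraries, at 1.80 and 1.45 times the level of PPIP5K1. This order and both multiples rest on those values, since reads in the shared runs of PPIP5K1 may be missing. The listed levels of PPIP5K1 and PPIP5K2 summed to 22.3 and 23.8 TPM. That is below the sum of the IP6 kinases (74.7 and 79.9 TPM) and above the listed level of IPPK alone (5.79 and 3.67 TPM).

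The Nudix hydrolases remove the diphosphate. NUDT4 (ENSG00000173598, chromosome 12, 93377883 to 93408146, plus strand), also called DIPP2, was 19.0 TPM after control siRNA and 11.7 TPM after XPR1 siRNA. That is 1.63-fold lower (1.45 to 1.83), from 810 and 478 reads, and 14.6% of all compared genes had a lower difference. UBE2N, the ubiquitin-conjugating enzyme gene that overlaps its 3′ part on the other strand, was 37.2 and 42.4 TPM, a difference of 0.18 on the log2 scale. NUDT4 was past 1.5-fold with the TPM as deposited but not with a pseudocount of 5, where the difference was -0.53. If all of its reads came from its 7604 uncovered bases, the level over those bases would be 25.2 and 15.5 TPM. Its places in the order thus rest on the listed values.

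NUDT3 (ENSG00000272325, chromosome 6, 34279679 to 34392674, minus strand), also called DIPP1, was listed at 0.503 TPM after control siRNA and 0.348 TPM after XPR1 siRNA. These values rest on 21 and 14 reads, and the ratio of 0.693 (0.326 to 1.43) was within counting error. If all of these reads came from the 411 bases of its own, the level over those bases would be 12.1 and 8.39 TPM. RPS10-NUDT3 had 1 and 2 reads. Of the 522 protein-coding genes with at least 90% of their exonic bases in other genes' exons, 80.5% were at 0 in both libraries, and 0.958% had a mean of at least 1 TPM. Of the 15903 with under 10% so covered, 23.3% were at 0 and 59.7% had such a mean. The part of this coverage in the level of NUDT3 was not tested, and its last place in the order rests on the listed values. The further DIPP genes NUDT10 and NUDT11 on chromosome X, which share 98.98% of their coding bases, were at 0 in both libraries, which allows up to 0.360 and 0.310 TPM after XPR1 siRNA.

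MINPP1 (ENSG00000107789, chromosome 10, 87504875 to 87553460, plus strand), the phosphatase of IP6 that resides in the endoplasmic reticulum, was 23.6 TPM after control siRNA and 44.1 TPM after XPR1 siRNA. The ratio of 1.87 (1.62 to 2.16), from about 300 and 540 reads, was the highest of the members. On the log2 scale the difference was 0.88, and 12.7% of all compared genes had a larger one. No exon of another gene overlaps it and no run of 75 bases of its longest transcript matches another gene. The phosphatases thus differed in opposite directions: the level of MINPP1 was 1.24 times that of NUDT4 after control siRNA and 3.77 times after XPR1 siRNA. Both multiples rest on the listed values, since the reads of NUDT4 over its uncovered bases alone would give 25.2 and 15.5 TPM.

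The wider inositol phosphate pathway was described from a list of 45 further genes, of which 37 had a mean of at least 1 TPM. Of these, 9 were higher by 1.5-fold or more (24.3%, against 21.7% of all genes) and 5 lower by as much (13.5%, against 16.6%). The median difference was 0.03. It was -0.06 with upper-quartile scaling and -0.03 with median-of-ratios scaling, so it has no stable sign.

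Phospholipases C, which release IP3 from membrane lipid and so feed the pathway, held 5 of the 9 higher genes, and 5 of 12 when recovered reads were used. Of the 9 phospholipases C with a mean of at least 1 TPM, 5 were higher and 1 lower by 1.5-fold, against 21.7% and 16.6% of all genes. The list is too short to read more than these values from it. PLCE1 was 3.78 TPM after control siRNA and 14.1 TPM after XPR1 siRNA, a ratio of 3.74 (3.20 to 4.38). PLCD1 was 2.36 and 9.53 TPM, and PLCD3 was 13.2 and 37.1 TPM. PLCB4, the most abundant, was 48.1 and 94.1 TPM, and PLCG1, which is activated by receptor tyrosine kinases, was 23.9 and 43.3 TPM. PLCD4 was 12.1 and 2.60 TPM, or 4.65-fold lower (3.53 to 6.22). The remaining 3 were within 1.5-fold: PLCG2 was lower, at 28.5 and 22.7 TPM, with a ratio of 0.798 (0.741 to 0.860), and the intervals of PLCB3 and PLCH1 held 1.

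The genes that act on IP3 differed among themselves. ITPR3, an IP3-gated calcium channel of the endoplasmic reticulum and one of the 3 most abundant genes of the list, was 126.4 and 69.0 TPM, 1.83-fold lower (1.75 to 1.92). ITPR1, another such channel, was 0.606 and 2.17 TPM, so the low one was higher and the abundant one lower. ITPR2, the remaining channel of this kind, was 19.3 and 15.9 TPM, a ratio of 0.824 (0.752 to 0.904). ITPKA, a kinase that turns IP3 into IP4, was 29.4 TPM with control siRNA and 4.71 TPM with XPR1 siRNA, and so 6.25-fold lower (4.47 to 8.96). This was the lowest ratio of the 37 genes, and 1.31% of all compared genes had a lower difference. Its paralogs were within 1.5-fold on the log2(TPM + 1) scale. ITPKB was higher, at 9.19 and 14.0 TPM, with a ratio of 1.52 whose interval lay above 1, and ITPKC was lower, with a ratio of 0.794 (0.647 to 0.965). Among the 14 expressed phosphatases of positions other than the diphosphate, 12 were within 1.5-fold on the log2(TPM + 1) scale, as were 61.7% of all genes. Among these 12, INPP4A and INPP4B were just past 1.5-fold by the ratio of TPM, at 1.52 and 1.51. INPP5B was 25.4 and 13.1 TPM, and INPP5J was 0.786 and 3.42 TPM, from 16 and 67 reads.

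The making of inositol from glucose 6-phosphate starts with ISYNA1, and inositol monophosphatases release free inositol. ISYNA1 was 8.88 TPM after control siRNA and 15.0 TPM after XPR1 siRNA, a ratio of 1.69 (1.34 to 2.13). The monophosphatase IMPA1 was 41.9 and 22.5 TPM and its paralog IMPA2 was 11.7 and 19.7 TPM, so they differed in opposite directions. BPNT2, the most abundant gene of the list, was 264.6 and 195.2 TPM, within 1.5-fold.

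**Figure D4:**
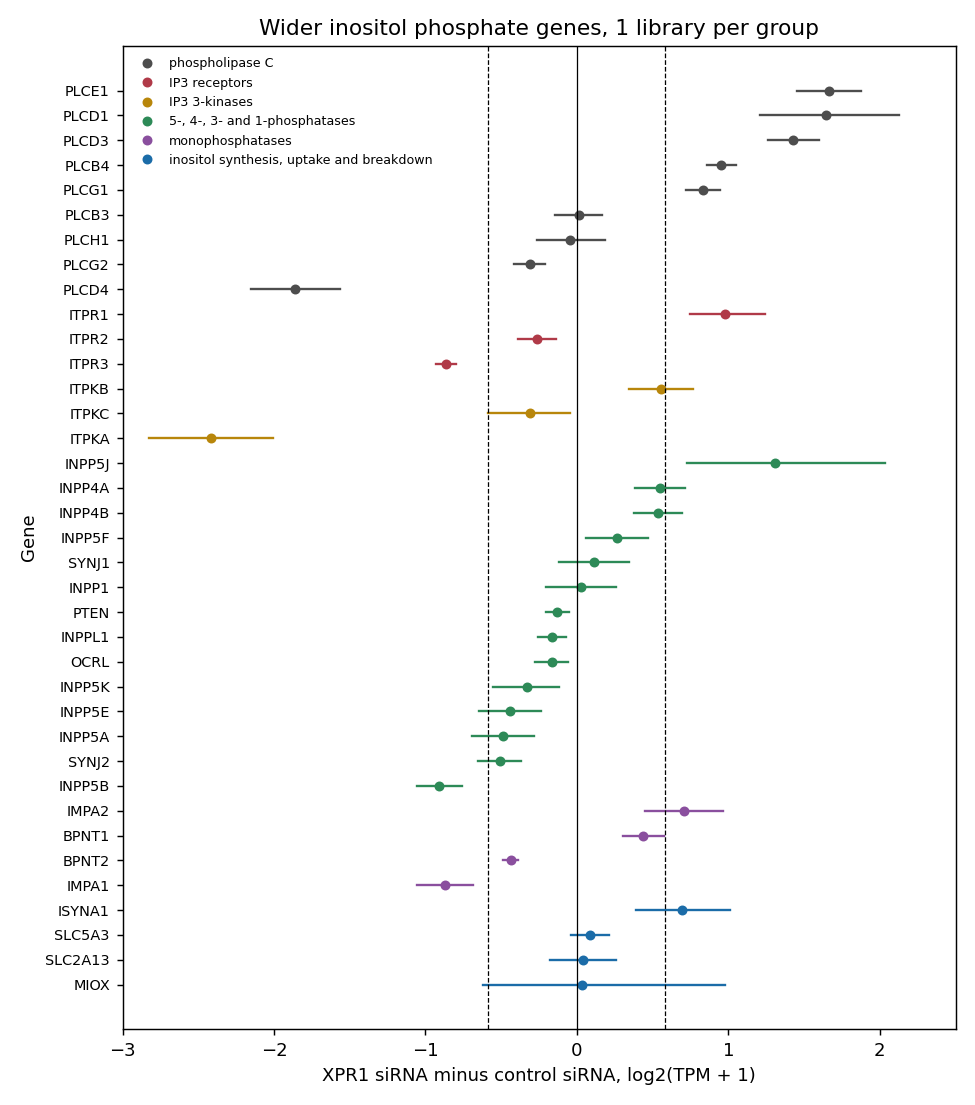
Differences between the libraries on the log2(TPM + 1) scale for the 37 expressed genes of the wider list, grouped by role, with 95% counting intervals and dashed lines at 1.5-fold. Of the phospholipases C, 5 lie to the right of the upper line and PLCD4 to the left of the lower one, and ITPKA has the lowest value at -2.41.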

How the data were processed

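The authors deposited TPM values for both libraries in 1 table, and each column sums to 1000000. Per the labels' protocols, RNeasy Plus kits gave the RNA and a TruSeq RNA v2 kit the libraries. Per the submitters' processing notes, FastQC, MultiQC, Trimmomatic 0.38, featureCounts 2.0.0 and GRCh38 were used. The sources used here do not give the aligner, the annotation or the counting options. Symbols came from a table of identifiers (58472 of 58884 matched), and exon lengths, coordinates and transcript sequences from GENCODE 29 (58611 matched). The plan allowed for counts or TPM, and the comparison of log2(TPM + 1) was used.

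Reads were recovered by dividing TPM times exon length by the step of 1 read. Among genes of 1 to 10 reads, 95.3% (control siRNA) and 95.6% (XPR1 siRNA) fell within 0.05 of a whole number, and among all genes above 0, 75.7% and 75.4%. They were whole in both libraries for 6 members. IPMK, ITPK1, IPPK and MINPP1 were rounded, so their intervals are approximate. Of the 37 genes of the wider list with a mean of at least 1 TPM, 18 were whole in both libraries. The rest, ITPKA, PLCD4, PLCG2, ITPR2 and ITPKC among them, were rounded too, and their intervals are also approximate. Ratios have Clopper-Pearson and levels Poisson intervals. Limits for a count of 0 are 3 reads. Reads were not marked by molecular identifiers, so they need not stand for separate molecules, and intervals cover counting error only. The recovery was also run on simulated data built from the same exon lengths, where whole reads return by construction. That run cannot show whether these lengths match those behind the deposited TPM.

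Members and lists were chosen with earlier results of these data known. The text names all 10 members, the paralogs IP6K3, NUDT10 and NUDT11, genes of the wider list at a mean of at least 1 TPM and 1.5-fold apart, its 3 most abundant genes, XPR1 and genes that overlap or copy a member. Other genes of the wider list were named after their values were seen. Shared runs were found with blastn 2.17.0 and coding sequences aligned with Biopython 1.88. The run length of 75 bases was chosen after seeing the data, and the read length is not given in the sources used here. Alternatives were other pseudocounts, floors and scalings, omission of mitochondrial genes, and recovered reads.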

Additional observations from a re-analysis of the deposited data

How the results depend on the processing

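No paired analysis was possible because there is a single library on each side, so leaving one out leaves no comparison. The count of members at least 1.5-fold higher was 1 under every alternative run. The count at least 1.5-fold lower was 1 and became 2 with a pseudocount of 0.1, with upper-quartile scaling and with the recovered reads, when IPPK joined NUDT4 (22.2% of the 9, against 19.2% of all genes in each), and 0 with a pseudocount of 5. With a pseudocount of 5 the wider list had 5 genes in place of 9 at least 1.5-fold higher (11 with a pseudocount of 0.1 and 12 with recovered reads), and among all genes 2076 in place of 3541 were higher and 1485 in place of 2716 lower. A larger pseudocount shrinks differences by construction. Without a filter, 4031 of 58884 genes were lower and 4772 higher, and with a mean of at least 5 TPM 1427 and 2077. The members' median stayed between 0.12 and 0.30, and no member changed sign in 60 recomputed values. Over all recomputed single genes, 12 of 144 values left the counting interval and none that was past 1.5-fold changed sign. These sign counts carry little weight, since a change of pseudocount cannot turn a sign. The scalings shifted the log2 ratio by -0.056 (median-of-ratios), -0.091 (upper-quartile) and 0.005 (mitochondrial genes left out). Shifts this small could not change the sign of a gene past 1.5-fold. The values of NUDT3 and of the paralogs rest on 21 reads or fewer in each library, and whether depth or shared bases sets that number was not tested.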

Other observations

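Coverage by other genes' exons went with the listed level across protein-coding genes outside the mitochondrial genome. The share with a mean of at least 1 TPM was 59.7% of the 15903 genes with under 10% of their exonic bases so covered, 69.2% of the 2899 with 10% to under 50%, 28.8% of the 608 with 50% to under 90%, and 0.958% of the 522 with at least 90%. IPPK, at 72.0%, belongs to the third class, whose median was 0.197 TPM after control siRNA and 0.199 TPM after XPR1 siRNA. Over its 1447 uncovered bases alone, the reads of IPPK would give 20.7 and 13.1 TPM.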
